A study of Mus musculus with 12 samples.

Results

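The complement system was followed through 9 listed genes, the initiating chains C1qa, C1qb and C1qc, the amplifying components C4b, C3, Cfb and Cfp, and the anaphylatoxin receptors C3ar1 and C5ar1, out of 18194 genes with a named probe set. Of the 9, 8 had a probe set named for them in the annotation used here, and C3 was not analysed here. Each gene was represented by its brightest probe set over the 12 arrays, and its other probe sets served as checks. The probe set for C4b is annotated to both C4a and C4b, 2 near-identical genes whose signals cannot be told apart, and it is called C4a/C4b below. Cfb failed the filter on dim probe sets, which asked for a log2 value above 5 in at least 3 arrays, so 7 of the 9 were among the 9121 genes tested.

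The arrays measured RNA of hippocampal CD11b+ cells, isolated by flow cytometry from female mice, 1 mouse to an array. The 4 groups of 3 mice were irradiated C57BL/6, sham C57BL/6, irradiated Balb/c and sham Balb/c mice. Irradiated mice had received a single dose of 10 Gy of X-rays to the forebrain under ketamine and xylazine anaesthesia at 6.5 weeks of age, and all mice were 10.5 weeks old when analysed, 1 month after irradiation or sham treatment. The labels name no transgene and no further agent for any group. CD11b is carried by microglia and by other myeloid cells alike, so the sort does not separate them, and in such bulk samples fewer cells of a type and less RNA per cell cannot be told apart.

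Complement is a set of proteins that tag targets for removal and release small peptides that attract and activate myeloid cells. C1q binds tagged surfaces and starts the classical pathway, which cleaves C4 and then C3. Properdin (Cfp) and factor B (Cfb) sustain the alternative pathway, and the fragments C3a and C5a act on the receptors encoded by C3ar1 and C5ar1. In the brain, microglia are the main source of C1q, and complement is known for marking synapses that microglia then engulf.

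The C1q chains were very bright in all 4 groups and did not pass the test for irradiation in either strain. The genes that rose after irradiation were the receptors C3ar1 and C5ar1 and the C4a/C4b probe set in Balb/c, and these together with Cfp in the average of both strains. No member passed the test in C57BL/6 alone on its brightest probe set. C5ar1, C4a/C4b and Cfp were higher in each of the 3 irradiated C57BL/6 arrays than in each of the 3 sham arrays, as were 11.4% of all genes. For C3ar1 the strain of the call depended on the probe set. Its other probe sets were not called in Balb/c, and its second brightest was called in C57BL/6. Between strains, C5ar1 and C1qc were lower in Balb/c than in C57BL/6, in irradiated and in sham mice. C4a/C4b was lower there too, but it passed the filter only through C57BL/6, so its calls between strains support nothing.

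The labelled cell type was checked against 9 microglial marker genes, whose mean log2 level was 13.81 ± 0.10 in irradiated and 13.92 ± 0.03 in sham C57BL/6 arrays, and 13.70 ± 0.06 in irradiated and 13.76 ± 0.05 in sham Balb/c arrays (SD, n = 3 each). None of the 9 was at or under 5 on any array. Siglech was the 1 of the 9 called after irradiation in the average of both strains, where it was lower (-0.38, limma, adjusted p = 0.0183). These levels show that microglial transcripts were present, and they do not show that other cells were absent. The 7 oligodendrocyte markers had group means of 10.21 to 10.34, and Mbp among them had 15.02 to 15.31. The 3' minus 5' difference of the Actb and Gapdh control probe sets, here called the 3' excess, a sign of shortened RNA products, lay between 3.50 and 3.81 on 10 arrays, against 4.82 on Balb/c irradiated replicate 2 and 4.21 on Balb/c irradiated replicate 3. Balb/c irradiated replicate 2 and C57BL/6 irradiated replicate 3, which had the lowest mean correlation with its own group (0.966, against 0.968 for replicate 2), were treated as arrays that stand apart, and results that rest on them are given without them. The control signal for 18S ribosomal RNA was lower on every irradiated array than on every sham array, with means of 11.69 ± 0.12 in irradiated and 12.16 ± 0.13 in sham C57BL/6 arrays and of 11.19 ± 0.61 in irradiated and 12.19 ± 0.22 in sham Balb/c arrays, and its part in the results below was not tested.

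C1qa, C1qb and C1qc encode the 3 chains of C1q and lie next to each other in the RefSeq annotation. C1qa had log2 values of 14.46, 14.47 and 14.44 in irradiated C57BL/6 arrays, against 14.51, 14.46 and 14.40 in sham C57BL/6 arrays. In Balb/c its values were 14.53, 14.24 and 14.66 in irradiated arrays, against 14.63, 14.70 and 14.48 in sham arrays. All groups overlapped except that sham Balb/c and irradiated C57BL/6 arrays did not, and the whole range of the 12 arrays was narrow, at 14.24 to 14.70.

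C1qb had 15.92, 15.77 and 15.65 in irradiated C57BL/6 arrays, against 15.39, 15.77 and 15.84 in sham C57BL/6 arrays. Balb/c arrays had 15.63, 15.54 and 15.54 if irradiated, against 15.33, 15.56 and 15.42 if sham. Irradiated and sham arrays overlapped in both strains. These values lie near the top of the scale, which ended at 16.17, where differences between arrays can be compressed.

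C1qc had 14.17, 14.27 and 14.34 in irradiated C57BL/6 arrays, against 14.20, 14.19 and 14.23 in sham C57BL/6 arrays. In Balb/c its values were 13.70, 13.33 and 13.77 in irradiated arrays, against 13.74, 13.79 and 13.65 in sham arrays. Every Balb/c array lay below every C57BL/6 array, and the lowest value belonged to Balb/c irradiated replicate 2, the array with the largest 3' excess.

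**Figure D1:**
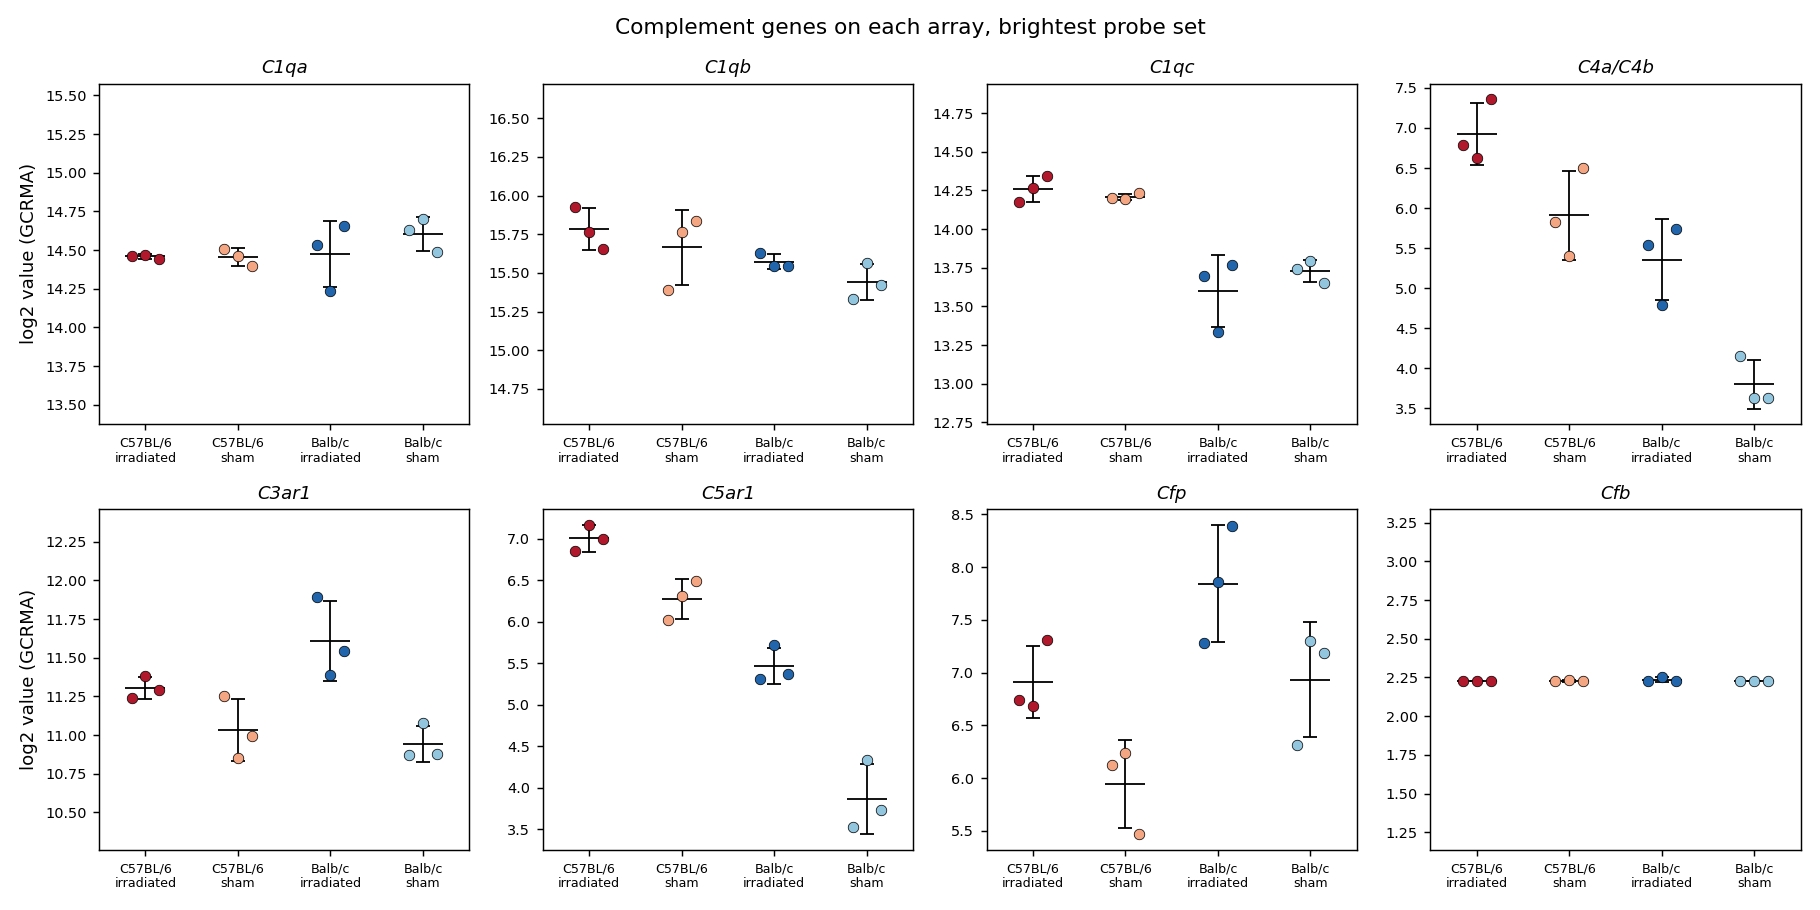
Log2 values (vertical axes, GCRMA) of the 8 complement genes with a named probe set on each of the 12 arrays, with points for single mice and bars for the group mean and SD (n = 3). C1qa and C1qb barely move, C1qc splits by strain, C5ar1 and C4a/C4b split by strain and treatment, and Cfb lies at 2.23 to 2.25 on every array, the bottom of the scale.

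C4, the component that C1 cleaves, was measured only as C4a/C4b. Its log2 values were 6.79, 6.63 and 7.36 in irradiated C57BL/6 arrays, against 5.82, 5.41 and 6.50 in sham C57BL/6 arrays. In Balb/c they were 5.54, 4.79 and 5.74 in irradiated arrays, against 4.15, 3.63 and 3.62 in sham arrays. Irradiated and sham arrays did not overlap in either strain. From high to low the order of the groups was irradiated C57BL/6, sham C57BL/6, irradiated Balb/c and sham Balb/c, with means of 6.93 ± 0.39, 5.91 ± 0.55, 5.36 ± 0.50 and 3.80 ± 0.30 (SD, n = 3 each), and the 2 middle groups overlapped.

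Properdin, encoded by Cfp, stabilises the C3 convertase of the alternative pathway and is known to be made by myeloid cells. Cfp had log2 values of 6.74, 6.69 and 7.31 in irradiated C57BL/6 arrays, against 6.13, 6.24 and 5.47 in sham C57BL/6 arrays. In Balb/c it had 7.28, 7.86 and 8.39 in irradiated arrays, against 6.31, 7.30 and 7.19 in sham arrays. The treatments were separate in C57BL/6 but overlapped in Balb/c. Sham C57BL/6 was the lowest group, below every other array, while sham Balb/c and irradiated C57BL/6 overlapped with a mean of 6.93 ± 0.54 and 6.91 ± 0.34 (SD, n = 3 each). Factor B, the protease of the same convertase, was not seen above the bottom of the scale on any array, so no level or difference of Cfb is given.

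C3ar1 encodes the receptor for C3a. It had log2 values of 11.24, 11.38 and 11.29 in irradiated C57BL/6 arrays, against 11.25, 10.85 and 11.00 in sham C57BL/6 arrays. Its Balb/c values were 11.89, 11.39 and 11.54 in irradiated arrays, against 10.87, 11.08 and 10.88 in sham arrays. Irradiated Balb/c arrays were the highest and all above their sham arrays, and in C57BL/6 the treatments overlapped through sham replicate 1.

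C5ar1 encodes the receptor for C5a, which draws myeloid cells towards sites of complement cleavage. It had log2 values of 6.85, 7.17 and 6.99 in irradiated C57BL/6 arrays, against 6.02, 6.32 and 6.49 in sham C57BL/6 arrays. In Balb/c it had 5.31, 5.72 and 5.38 in irradiated arrays, against 3.52, 4.34 and 3.73 in sham arrays. No 2 of the 4 groups overlapped. Their order from high to low was irradiated C57BL/6, sham C57BL/6, irradiated Balb/c and sham Balb/c, the order that C4a/C4b also had. The sham Balb/c arrays of both C5ar1 and C4a/C4b lay under 5, the level used as the filter, where a dim probe set can understate or overstate a difference.

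Members with several probe sets were compared across them. The second probe set of C5ar1 lay at the bottom of the scale on every array, at 2.23 to 2.24, so C5ar1 rests on 1 probe set. The 2 further probe sets of C3ar1 kept the direction of the irradiation difference in both strains but divided it between the strains in another way. On the second brightest C3ar1 had a mean of 11.28 ± 0.18 in irradiated and 10.63 ± 0.15 in sham C57BL/6 arrays, and of 11.14 ± 0.10 in irradiated and 10.85 ± 0.10 in sham Balb/c arrays (SD, n = 3 each). The second probe set of Cfp was dim at 3.33 to 5.21 and not tested, and its means were 4.92 ± 0.27 in irradiated and 4.09 ± 0.42 in sham C57BL/6 arrays, and 4.37 ± 0.62 in irradiated and 3.82 ± 0.43 in sham Balb/c arrays. It thus ran in the same direction as the brightest one between treatments, and in the opposite direction between strains.

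**Figure D2:**
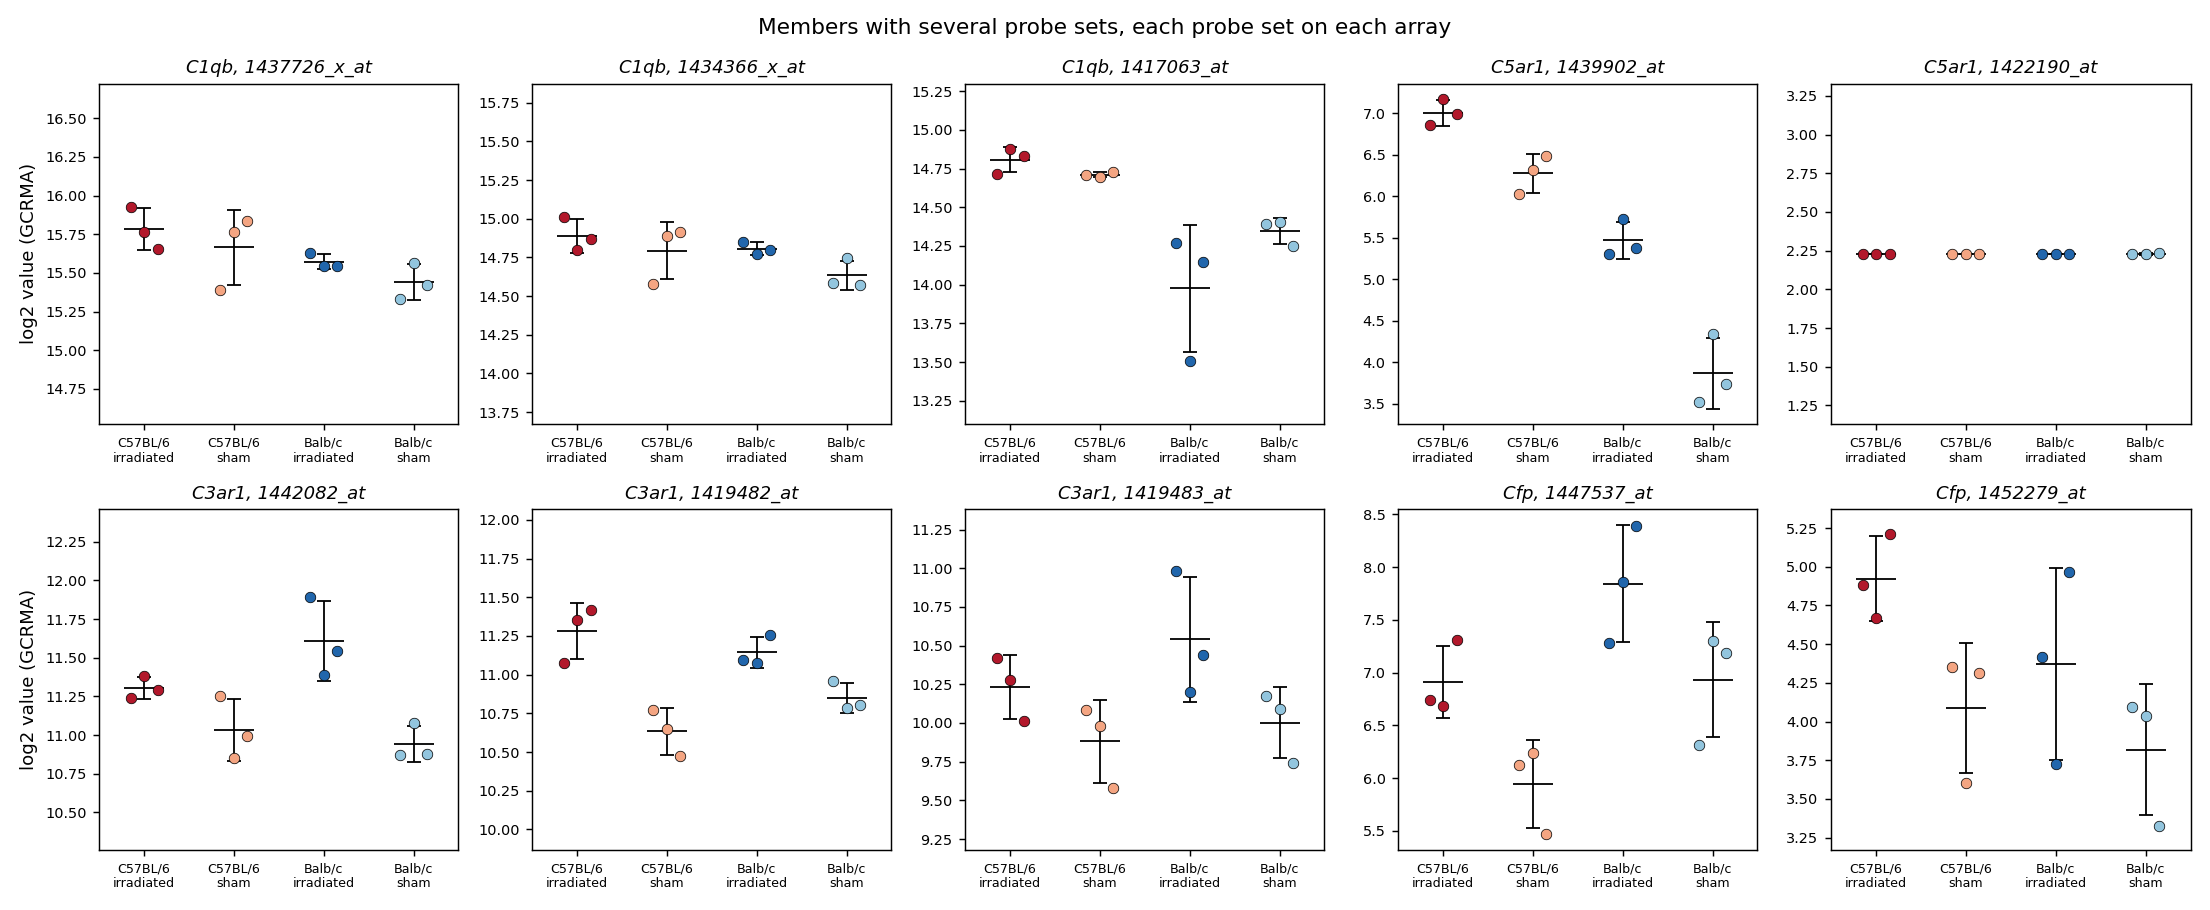
Log2 values (vertical axes, GCRMA) of every probe set of the 4 members that have more than 1, on each of the 12 arrays, with points for single mice and bars for the group mean and SD (n = 3). C3ar1 is higher in irradiated mice on all its probe sets by different amounts, C1qb on the third probe set is lowest on Balb/c irradiated replicate 2 at 13.51, and the second C5ar1 probe set stays at the bottom of the scale.

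The irradiation effect in C57BL/6 was tested first, with limma over all 9121 genes and Benjamini-Hochberg adjustment. None of the 7 members passed an adjusted p of 0.05, against 3.67% of all genes in either direction. An unadjusted p under 0.05 was found for 3 of the 7. The share of all genes at that unadjusted level is not given, so that count shows no excess. C4a/C4b was higher by 1.02 ± 0.33 (log2 ± SE, adjusted p = 0.112), Cfp by 0.97 ± 0.34 (adjusted p = 0.140) and C5ar1 by 0.73 ± 0.21 (adjusted p = 0.0856). For these 3 all irradiated arrays lay above all sham arrays, as they did for 11.4% of all genes. The median log2 difference of the 7 members was 0.27, and that of all genes was -0.04. Without Balb/c sham replicate 2 in the shared estimate of the spread, C5ar1 passed with the same difference of 0.73 (adjusted p = 0.0470), and with values under 4 set to 4 it passed as well (adjusted p = 0.0396). C3ar1 differed by 0.27 ± 0.15 (adjusted p = 0.319) on its brightest probe set, whereas its second brightest probe set rose by 0.65 ± 0.13 in a fit of all probe sets (adjusted p = 0.0279).

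In Balb/c, 3 of the 7 members were called higher and none lower, against 3.27% of all genes called higher. C5ar1 rose 3.04-fold, by 1.60 ± 0.21 (log2 ± SE, adjusted p = 0.00233), in 3 of 3 arrays. C4a/C4b rose 2.94-fold, by 1.55 ± 0.33 (adjusted p = 0.0199), and C3ar1 rose 1.59-fold, by 0.67 ± 0.15 (adjusted p = 0.0281). For the same 3 genes all irradiated arrays lay above all sham arrays, as for 12.8% of all genes. Cfp differed by 0.91 ± 0.34 (adjusted p = 0.143). The median log2 difference of the 7 members was 0.67, and that of all genes was -0.04. With values under 4 set to 4 the rise in Balb/c was smaller, at 1.36 for C5ar1 and 1.30 for C4a/C4b.

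The C5ar1 call in Balb/c held without each of the 12 arrays in turn, and the other 2 did not. C4a/C4b lost its call without Balb/c sham replicate 2 (1.47, adjusted p = 0.0762) or replicate 3 (1.47, adjusted p = 0.0612), or Balb/c irradiated replicate 1 (1.46, adjusted p = 0.0558) or replicate 3 (1.36, adjusted p = 0.0770). C3ar1 lost it without any one of the Balb/c sham arrays (0.63 to 0.73, adjusted p = 0.0543 to 0.0944) and without Balb/c irradiated replicate 1 (0.52, adjusted p = 0.0660) or replicate 3 (0.70, adjusted p = 0.0649). Without the filter on dim probe sets neither passed (adjusted p = 0.0830 for C4a/C4b and 0.0654 for C3ar1). The 3' excess was largest on 2 of the irradiated Balb/c arrays, and with it as a covariate C4a/C4b did not pass (1.80, adjusted p = 0.0842). With only the compared groups in the fit C3ar1 did not pass (adjusted p = 0.0719). On the other probe sets of C3ar1 the Balb/c difference was 0.29 ± 0.13 (second brightest, adjusted p = 0.221) and 0.54 ± 0.22 (the third, adjusted p = 0.188).

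Averaged over both strains, 4 of the 7 members were called higher and none lower, against 7.74% of all genes called higher. C4a/C4b rose 2.44-fold, by 1.28 ± 0.23 (log2 ± SE, adjusted p = 0.00534), and C5ar1 rose 2.24-fold, by 1.17 ± 0.15 (adjusted p = 8.97e-04). Cfp rose 1.92-fold, by 0.94 ± 0.24 (adjusted p = 0.0262), and C3ar1 rose 1.38-fold, by 0.47 ± 0.11 (adjusted p = 0.0154). C5ar1 and C4a/C4b were the members whose irradiated arrays lay above the sham arrays in both strains, a separation that 4.71% of all genes had. Cfp lost its call without C57BL/6 sham replicate 3 (0.82, adjusted p = 0.0553), C57BL/6 irradiated replicate 3 (0.84, adjusted p = 0.0635), Balb/c sham replicate 1 (0.78, adjusted p = 0.0544) or Balb/c irradiated replicate 3 (0.80, adjusted p = 0.0558), and without both arrays that stand apart (0.84, adjusted p = 0.0993). The other 3 calls held in each of these settings. Cfp also lost its call without the filter on dim probe sets (adjusted p = 0.0887) and with the 3' excess as a covariate (0.89, adjusted p = 0.0809). On the third probe set of C3ar1 the average difference was 0.45 ± 0.15 (adjusted p = 0.0822).

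The C1q chains showed no called difference with irradiation on any of their probe sets. In C57BL/6 C1qa differed by 0.0031 (log2), C1qb by 0.12 and C1qc by 0.05, and in Balb/c they differed by -0.13, 0.13 and -0.13. The 95% intervals of C1qa and C1qc lay between -0.40 and 0.32. No such limit is drawn for C1qb, whose brightest probe set reads near the top of the scale. On the dimmest of its probe sets, the one whose name does not end in x_at, a suffix for probes that can match further sequences, C1qb differed by -0.37 ± 0.17 in Balb/c (log2 ± SE, adjusted p = 0.247), opposite in sign to the value on the brightest, and by 0.10 ± 0.17 in C57BL/6 (adjusted p = 0.786).

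**Figure D3:**
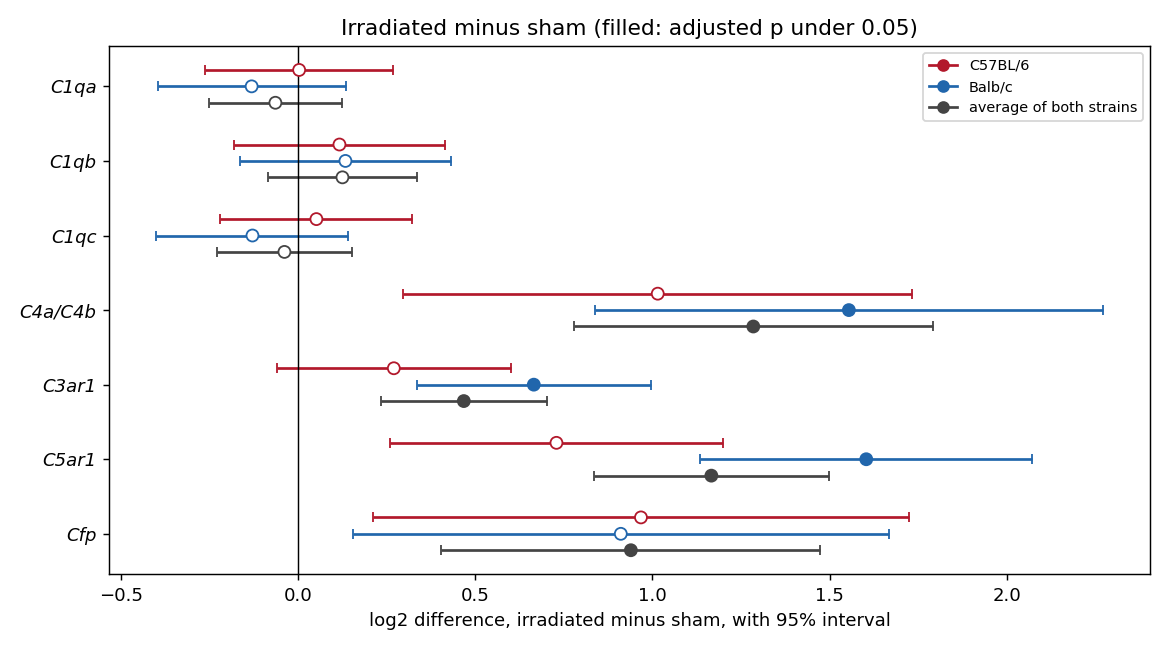
Difference between irradiated and sham arrays (horizontal axis, log2) with its 95% interval for the 7 tested members in C57BL/6, in Balb/c and in the average of both strains. Filled points passed an adjusted p of 0.05 (limma). The C1q chains lie between -0.13 and 0.13 in both strains on their brightest probe sets, and the other 4 members lie above 0 in both strains, with C3ar1 in C57BL/6 closest to it at 0.27.

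Whether irradiation acted differently in the 2 strains was tested as the Balb/c effect minus the C57BL/6 effect. None of the 7 members passed in limma, against 0.0767% of all genes. C5ar1 was the 1 of the 7 with an unadjusted p under 0.05, a level for which no share of all genes is given. For C5ar1 the difference of the effects was 0.87 ± 0.30 (log2 ± SE, unadjusted p = 0.0145, adjusted p = 0.558). It was 0.54 ± 0.46 for C4a/C4b (adjusted p = 0.780), and 0.39 for C3ar1 (95% interval -0.07 to 0.86, adjusted p = 0.659). For Cfp it was -0.06 ± 0.48 (adjusted p = 0.984). The interval for C5ar1, 0.21 to 1.54, does not hold 0, and those for C4a/C4b (-0.48 to 1.55) and Cfp (-1.13 to 1.01) are wide enough to hold a large difference in either direction. The higher fold of C5ar1 in Balb/c stands beside the lower starting level there, with a mean of 3.87 ± 0.42 in sham Balb/c arrays and 6.28 ± 0.24 in sham C57BL/6 arrays (SD, n = 3 each). With values under 4 set to 4 the difference of the effects was 0.63 for C5ar1 and 0.29 for C4a/C4b. For C3ar1 the direction depended on the probe set, since the second brightest gave -0.36 ± 0.18 (adjusted p = 0.651).

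Between the strains C5ar1 was called lower in Balb/c, and C1qc was the chain of C1q called lower on its brightest probe set. C4a/C4b is in the counts below, but it passed the filter only through C57BL/6, so its place in them supports nothing. In irradiated mice 3 of the 7 members were called lower in Balb/c than in C57BL/6 and none higher, against 4.6% of all genes called lower. C5ar1 was 2.90-fold lower in irradiated Balb/c (-1.54 ± 0.21, log2 ± SE, adjusted p = 9.89e-04), C4a/C4b differed by -1.57 ± 0.33 (adjusted p = 0.0114), and C1qc was 1.58-fold lower (-0.66 ± 0.12, adjusted p = 0.00615). These 3 and C1qb had all irradiated Balb/c arrays below all irradiated C57BL/6 arrays, as 12.4% of all genes had, and C3ar1 had them above, as 15.1% had. C1qa differed by 0.02 (95% interval -0.25 to 0.28), C1qb by -0.21 (-0.51 to 0.09) and C3ar1 by 0.30 (-0.03 to 0.63).

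In sham mice the same 3 genes, C5ar1, C4a/C4b and C1qc, were called lower in Balb/c and none of the 7 was called higher, against 5.25% of all genes called lower. C5ar1 was 5.32-fold lower in sham Balb/c (-2.41 ± 0.21, log2 ± SE, adjusted p = 3.12e-05), C4a/C4b differed by -2.11 ± 0.33 (adjusted p = 0.00164), and C1qc was 1.39-fold lower (-0.48 ± 0.12, adjusted p = 0.0303). All 3 sham Balb/c arrays lay below all 3 sham C57BL/6 arrays for these genes, as for 12.3% of all genes. Cfp was higher in all 3 sham Balb/c arrays, as were 16.3% of all genes, by 0.99 ± 0.34 (adjusted p = 0.105), and it differed by 0.93 ± 0.34 in irradiated mice (adjusted p = 0.130). The median log2 difference between strains of the 7 members was -0.21 in irradiated and -0.22 in sham mice, where that of all genes was 0.02 and 0.04. With values under 4 set to 4 the difference in sham mice was -2.16 for C5ar1 and -1.86 for C4a/C4b.

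C4a/C4b exceeded 5 on 2 of 6 Balb/c arrays and on 6 of 6 C57BL/6 arrays, so it passed the filter only through the strain where it was high. Its place in the counts between strains therefore supports nothing, and no fold is given. Without the filter its difference had an adjusted p of 0.0572 in irradiated and 0.0135 in sham mice. The C5ar1 calls between strains held without each of the 12 arrays in turn, as did those of C4a/C4b under the limit set by the filter. C1qc in sham mice lost its call without any one of the 6 sham arrays, at differences of -0.51 to -0.44 and adjusted p of 0.0610 to 0.103, and kept it in irradiated mice. Cfp in sham mice passed without Balb/c sham replicate 1, at a difference of 1.30 (adjusted p = 0.0457). In irradiated mice C4a/C4b lost its call without both arrays that stand apart (-1.07, adjusted p = 0.117), and with the 3' excess as a covariate C4a/C4b (-1.30, adjusted p = 0.185) and C1qc (-0.45, adjusted p = 0.141) did not pass. With only the compared groups in the fit C1qc in irradiated mice had an adjusted p of 0.0568. C1qb differed by probe set, as the third brightest was lower in irradiated Balb/c by -0.83 ± 0.17 (adjusted p = 0.0115) and the 2 others, whose names end in x_at, were not called. On that probe set the irradiated Balb/c arrays read 14.27, 13.51 and 14.15, against 14.72, 14.88 and 14.83 in irradiated C57BL/6 arrays, and the 13.51 is again replicate 2 with its high 3' excess. Between strains C5ar1, C4a/C4b and C1qc each rest on 1 probe set, with no other to serve as a check. The direction for Cfp and the size for C1qb changed with the probe set. Whether the strain differences lie in the transcripts or in the probe sets was not tested.

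**Figure D4:**
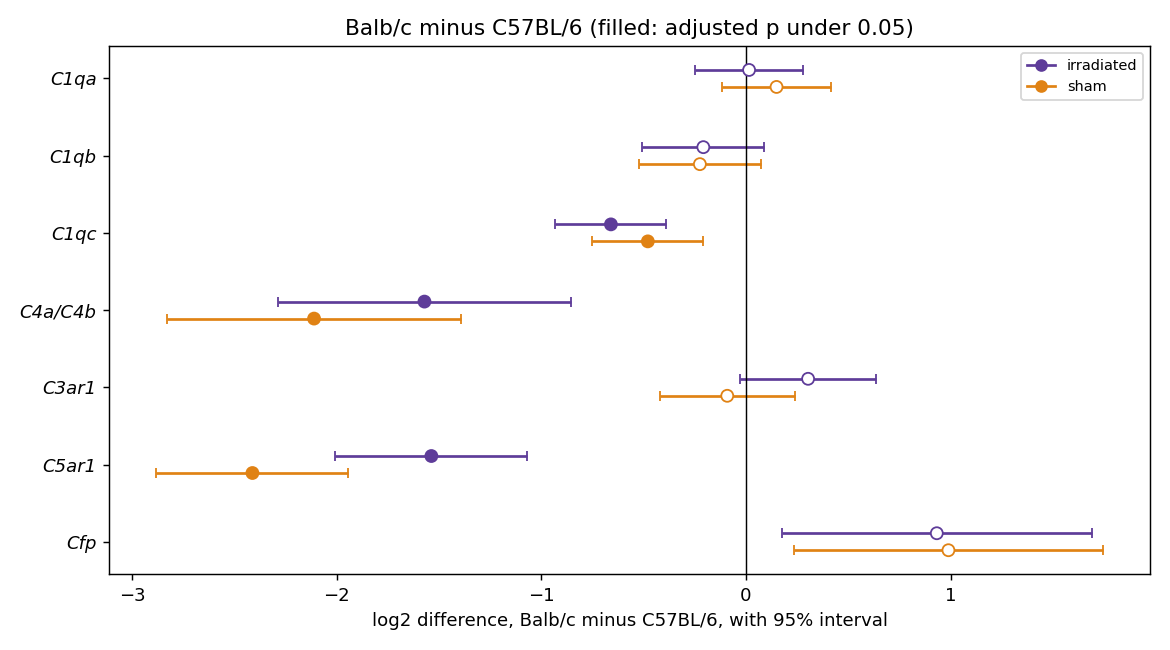
Difference between Balb/c and C57BL/6 arrays (horizontal axis, log2) with its 95% interval for the 7 tested members in irradiated and in sham mice. Filled points passed an adjusted p of 0.05 (limma). C5ar1, C4a/C4b and C1qc lie below 0 in both treatments, and Cfp lies above 0 without passing.

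The reference promoters of members on both sides of the result are given so that the genes that rose can be set beside C1qc, which did not. Windows of 300 bases, from 250 before to 50 after the annotated start, came from RefSeq (GRCm38.p6), and all of these genes lie on the minus strand. C3ar1 spans chr6:122856108-122856407, C5ar1 chr7:16259289-16259588, Cfp chrX:20931506-20931805 and C1qc chr4:136892865-136893164. The sequences run 5′ to 3′ along the gene, and capitals mark matches to the motifs named after them.
C3ar1: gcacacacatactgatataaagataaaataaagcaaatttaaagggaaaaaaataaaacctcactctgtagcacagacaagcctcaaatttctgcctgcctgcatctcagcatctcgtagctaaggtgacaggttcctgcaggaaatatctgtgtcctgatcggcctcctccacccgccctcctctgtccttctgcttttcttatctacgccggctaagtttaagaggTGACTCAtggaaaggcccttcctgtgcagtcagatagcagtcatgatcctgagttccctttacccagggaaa
C5ar1: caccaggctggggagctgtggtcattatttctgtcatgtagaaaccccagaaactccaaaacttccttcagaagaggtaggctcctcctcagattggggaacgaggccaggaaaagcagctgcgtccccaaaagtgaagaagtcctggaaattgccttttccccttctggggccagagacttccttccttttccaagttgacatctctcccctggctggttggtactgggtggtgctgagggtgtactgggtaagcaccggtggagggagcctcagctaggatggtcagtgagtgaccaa
Cfp: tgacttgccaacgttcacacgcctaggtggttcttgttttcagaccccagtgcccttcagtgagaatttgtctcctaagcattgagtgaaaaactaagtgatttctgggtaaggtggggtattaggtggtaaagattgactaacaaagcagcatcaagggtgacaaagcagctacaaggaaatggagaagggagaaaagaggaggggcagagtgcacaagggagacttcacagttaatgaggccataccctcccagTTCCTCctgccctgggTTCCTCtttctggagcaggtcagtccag
C1qc: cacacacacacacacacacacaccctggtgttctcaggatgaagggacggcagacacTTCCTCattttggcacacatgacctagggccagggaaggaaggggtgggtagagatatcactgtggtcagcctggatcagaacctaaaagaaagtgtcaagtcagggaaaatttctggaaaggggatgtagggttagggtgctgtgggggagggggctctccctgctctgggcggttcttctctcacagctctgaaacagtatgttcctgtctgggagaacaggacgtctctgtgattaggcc

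Both strands were searched for GAGGAA, the core bound by the myeloid factor PU.1, for TGANTCA, a site type of AP-1, and for TTCNNNGAA, a site type of STAT factors, and no match overlapped another. C3ar1 held 1 TGANTCA, starting 22 bases before the annotated start, a motif present in 7.81% of 32851 RefSeq windows of this length. C1qc held 1 GAGGAA on the opposite strand and Cfp held 2, and C1qb, whose window was searched but is not shown, held 1, where 28.3% of all windows hold it. C5ar1 held none of the 3 motifs. TTCNNNGAA, which 8.30% of all windows hold, was not found in the 5 windows searched. No motif was held by more than 1 of C3ar1, C5ar1 and Cfp, the members with a window that rose, which says only that these letters are not shared within 300 bases.

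Other genes of the pathway came from a list of 52 complement genes, the members included and C4a and C4b counted once. Of these 17 passed the filter, 27 were below it and 8 had no probe set named here. None of the 7 listed components of the terminal attack complex was kept, and 25 of the 52 were at or under 5 on all arrays, among them the proteases C1ra and C1s1 of the C1 complex, the lectins Mbl1 and Mbl2 and the regulators Cfi and Cd55. C2, the partner of C4 in the classical C3 convertase, was below the filter with values of 3.38 to 5.96.

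Among the 10 kept genes that are no members, 4 were called higher after irradiation in the average of both strains and 1 lower, against 7.74% and 8.15% of all genes. Cd93, a surface protein first described as a C1q receptor, rose by 1.04 ± 0.17 (log2 ± SE, adjusted p = 0.00306), and Vtn, which encodes vitronectin, a plasma protein that blocks the terminal complex, rose by 1.17 ± 0.21 (adjusted p = 0.00517). Fcna, which encodes a ficolin that starts the lectin pathway and is known from macrophages, rose by 1.36 ± 0.28 (adjusted p = 0.0103). Clu, which encodes clusterin, another inhibitor of the terminal complex and abundant in astrocytes, rose by 0.91 ± 0.21 (adjusted p = 0.0179). These 4 calls held without each of the 12 arrays in turn, and that of Clu was lost without the filter on dim probe sets (adjusted p = 0.0659).

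Cd93 was the 1 of the 10 called in C57BL/6, where 2.21% of all genes were called higher, with 7.72, 7.81 and 7.90 in irradiated arrays, against 6.95, 6.55 and 6.77 in sham arrays. It rose there by 1.05 ± 0.24 (log2 ± SE, adjusted p = 0.0393). In Balb/c it had 8.26, 7.36 and 7.43 in irradiated arrays, against 6.80, 6.31 and 6.88 in sham arrays, a rise of 1.02 ± 0.24 (adjusted p = 0.0318), and Vtn rose there too, by 1.28 ± 0.29 (adjusted p = 0.0300). Both groups of irradiated Cd93 values lay wholly above their sham values. The C57BL/6 call of Cd93 was lost without any one of the 6 C57BL/6 arrays or Balb/c sham replicate 1 (0.95 to 1.15, adjusted p = 0.0582 to 0.132), and without both arrays that stand apart (1.01, adjusted p = 0.128). In Balb/c it was lost without Balb/c sham replicate 1 (1.09, adjusted p = 0.0685) or replicate 2 (0.85, adjusted p = 0.113) or Balb/c irradiated replicate 1 (0.73, adjusted p = 0.0509), and that of Vtn without Balb/c sham replicate 1 (1.21, adjusted p = 0.0997) or replicate 2 (1.11, adjusted p = 0.110) or Balb/c irradiated replicate 3 (0.96, adjusted p = 0.0807), or without both arrays that stand apart (1.44, adjusted p = 0.0538). Without the filter on dim probe sets adjusted p was 0.121 for Cd93 in C57BL/6, and in Balb/c 0.10 for Cd93 and 0.102 for Vtn. In Balb/c both calls were also lost with only the compared groups in the fit (adjusted p = 0.0957 for Cd93 and 0.0847 for Vtn) and with the 3' excess as a covariate (1.32, adjusted p = 0.0588 for Cd93, and 1.26, adjusted p = 0.170 for Vtn).

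Itgam and Itgb2 encode the 2 chains of complement receptor 3, and Itgam is also CD11b, the antigen used for the sort. Itgam had log2 values of 8.72, 8.68 and 8.34 in irradiated C57BL/6 arrays, against 9.12, 9.42 and 8.93 in sham C57BL/6 arrays. In Balb/c it had 9.02, 7.62 and 7.87 in irradiated arrays, against 9.29, 9.40 and 9.16 in sham arrays. All irradiated arrays lay below all sham arrays in both strains, and Itgam fell by 0.84 ± 0.21 in the average (log2 ± SE, adjusted p = 0.0236). Itgb2 differed by -0.01 ± 0.11 (adjusted p = 0.941), a direction that turned in several alternatives.

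The fall of Itgam depended on single arrays. It lost its call without C57BL/6 sham replicate 2 (-0.78, adjusted p = 0.0510), C57BL/6 irradiated replicate 3 (-0.78, adjusted p = 0.0584), Balb/c sham replicate 1 (-0.84, adjusted p = 0.0509) or replicate 2 (-0.81, adjusted p = 0.0565) or Balb/c irradiated replicate 3 (-0.77, adjusted p = 0.0558). Without both arrays that stand apart it was -0.65 (adjusted p = 0.0886). With the 3' excess as a covariate it was -0.54 (adjusted p = 0.0518), and the 2 lowest arrays were those with the largest 3' excess. For the interaction and the 2 strain comparisons none of the 10 genes passed in limma, with 0, 3 and 3 of them at an unadjusted p under 0.05. These counts have no share of all genes beside them and show no excess.

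**Figure D5:**
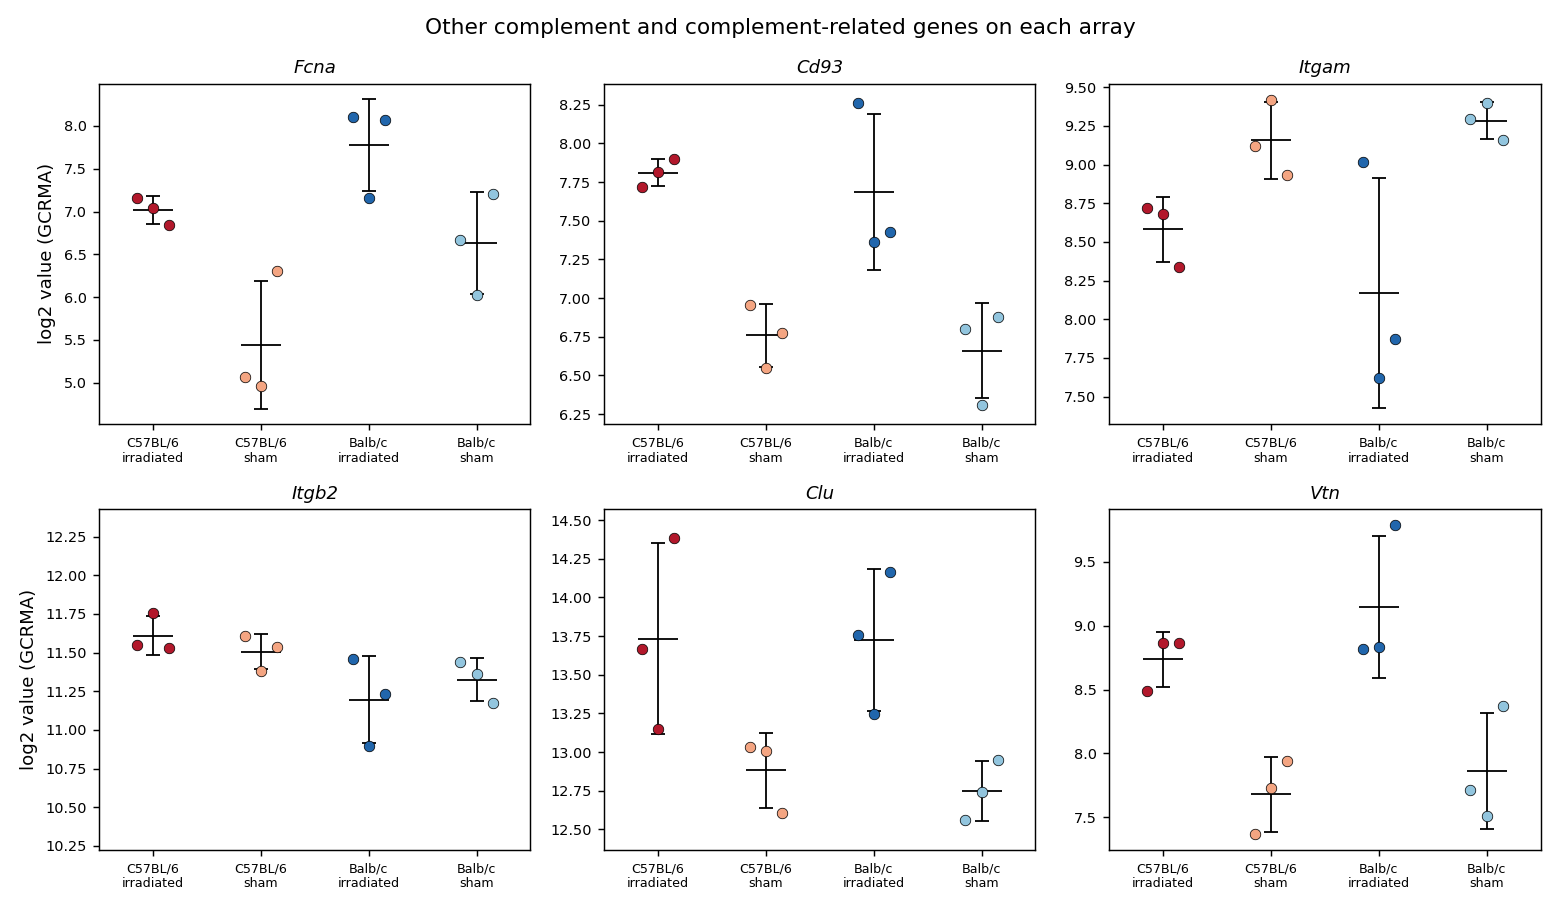
Log2 values (vertical axes, GCRMA) of the 6 other complement genes named in the text on each of the 12 arrays, with points for single mice and bars for the group mean and SD (n = 3). Cd93 and Vtn are higher and Itgam is lower on every irradiated array than on every sham array of the same strain, and Itgb2 overlaps in both strains.

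Markers of other cells that a CD11b sort can hold were at higher levels after irradiation, beside the complement genes that rose. The mean log2 level of the 8 monocyte markers ranged from 7.65 to 8.56 in irradiated and 5.94 to 7.18 in sham C57BL/6 arrays, and from 6.91 to 7.83 in irradiated and 6.11 to 6.58 in sham Balb/c arrays. In the average 6 of 8 were called higher, against 7.74% of all genes. The 8 markers of border-associated macrophages, the macrophages of the meninges and vessels, lay at 10.42 to 10.68 in irradiated and 9.38 to 10.66 in sham C57BL/6 arrays, and at 9.70 to 10.03 in irradiated and 9.07 to 9.28 in sham Balb/c arrays. Of these, 6 of 8 were called higher in the average, against the same 7.74%. The groups of 1 strain did not overlap for monocyte markers, and for border-associated markers they overlapped in C57BL/6. None of these markers was at or under 5 on all arrays. The mean level of the border-associated list was lower in Balb/c than in C57BL/6, at 9.90 and 10.57 in irradiated and 9.17 and 9.91 in sham mice. C5ar1 and C1qc had that direction too. It was not particular to this list, as the microglial means were lower in Balb/c as well, at 13.70 and 13.81 in irradiated and 13.76 and 13.92 in sham mice. The monocyte means were also lower in Balb/c in both treatments, and those of the astrocyte and vascular markers given next were higher.

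Astrocyte and vascular markers were at higher levels after irradiation as well, beside Clu, Vtn and C4a/C4b. The mean log2 level of the 10 astrocyte markers ranged from 9.47 to 10.06 in irradiated and 8.50 to 9.18 in sham C57BL/6 arrays, and from 9.73 to 10.51 in irradiated and 8.79 to 9.39 in sham Balb/c arrays. In the average 7 of 10 were called higher, against 7.74% of all genes. The 10 endothelial and mural markers, which include Vtn, lay at 7.60 to 8.20 in irradiated and 7.09 to 7.51 in sham C57BL/6 arrays, and at 8.10 to 8.58 in irradiated and 7.10 to 7.74 in sham Balb/c arrays. Of the 8 kept, 5 were called higher in the average, against the same 7.74%. Vtn itself is among the 5, with Slco1a4, Pdgfrb, Rgs5 and Kcnj8, and Cldn5, Flt1 and Tek were not called. Of these 10 markers, Pecam1 and Cdh5 were at or under 5 on all arrays, whereas Cldn5 had group means of 9.43 to 10.28. Between strains the astrocyte list had higher means in Balb/c than in C57BL/6, at 10.08 and 9.71 in irradiated and 9.09 and 8.90 in sham mice. So had the endothelial and mural list, at 8.33 and 7.84 in irradiated and 7.46 and 7.24 in sham mice. C4a/C4b read lower in Balb/c, a difference limited by the filter. The 8 neutrophil markers lay at 3.59 to 5.95 in irradiated and 3.56 to 5.41 in sham C57BL/6 arrays, and at 3.97 to 5.60 in irradiated and 3.01 to 3.16 in sham Balb/c arrays. Mpo, Elane and Cxcr2 were at or under 5 on all arrays. Of the 4 kept, 2 were called higher in Balb/c and in the average, where 3.27% and 7.74% of all genes were. These were S100a8, which had a mean of 10.24 in irradiated and 6.14 in sham Balb/c arrays (4.10, adjusted p = 0.00697), and S100a9, which had 8.55 in irradiated and 5.36 in sham Balb/c arrays (3.19, adjusted p = 0.0171). Both were also called lower in sham Balb/c than in sham C57BL/6 arrays, as C5ar1 was. The differences were -3.19 for S100a8 (adjusted p = 0.0107) and -2.47 for S100a9 (adjusted p = 0.0329). In irradiated mice S100a8 and S100a9 were not lower in Balb/c, at 0.70 (adjusted p = 0.603) and 0.25 (adjusted p = 0.864), whereas C5ar1 differed by -1.54. In C57BL/6 S100a8 and S100a9 differed with irradiation by 0.21 (adjusted p = 0.881) and 0.47 (adjusted p = 0.703). The part of these cells in the complement results was not tested.

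The genes whose values over the 12 arrays were most like a member's were found by Pearson correlation over all 9121 genes, as a description in which strain and treatment are shared by the points. C5ar1 was most like Gcnt1 (r = 0.970) and Ccdc122 (r = 0.966), and C4a/C4b was most like Iqgap2 (r = 0.976) and Rnase6 (r = 0.947). C5ar1 and C4a/C4b had r = 0.912 with each other. C1qc was most like Mpc1 (r = 0.973) and Tbcb (r = 0.961), which also split by strain, with Mpc1 at a mean of 9.96 in irradiated Balb/c and 11.59 in irradiated C57BL/6 arrays. C3ar1 was most like Pilrb1 (r = 0.885) and Retreg1 (r = 0.883), and Cfp was most like Emc3 (r = 0.949) and Pam16 (r = 0.913). The nearest genes of C1qa were Med30 (r = 0.903) and Kars (r = 0.893), and those of C1qb were Hsd17b4 (r = 0.927) and Leprot (r = 0.874).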

How the data were processed

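RNA of CD11b+ hippocampal cells from 12 mice was hybridised to Affymetrix arrays after 2 rounds of linear amplification, per the labels' protocols. The values of 45101 probe sets, as deposited by the authors, are on a log2 scale, and the submitters' processing notes name GCRMA for them with no version. All arrays have 1 distribution (sorted values equal within 0.001), and precision is limited by the number of arrays. Scanner files were not used here.

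Of the probe sets, 64 were controls, 34945 had 1 symbol and 932 several, and symbols were updated through RefSeq. The brightest probe set stood for a gene. The C4a/C4b probe set is the exception to using single symbols only, and its listed accession belongs to C4b. The 9121 genes above 5 in at least 3 arrays went into lmFit and eBayes of limma 3.58.1 (R 4.3.3), with 4 group means and 8 residual degrees of freedom, with Benjamini-Hochberg adjustment. A call needs an adjusted p under 0.05, and intervals are at 95%. The fit was checked on simulated data. The members, gene lists and tests were chosen with earlier results of these data known. Named are all members, up to 4 called genes of the complement list per comparison, Itgam, Itgb2 and the 2 genes most like each member.

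Deviations of same-numbered arrays correlated at 0.217, 0.447 and 0.323 between irradiated Balb/c and irradiated C57BL/6, all above 0.1, which counts as pairing for that comparison only. Nothing in the labels says what the numbers share. Alternatives were other filters, a floor at 4, centring, other probe sets, variance models, array weights, fewer groups in the fit, the replicate number as a block, the 3' excess as a covariate, another threshold and leaving out each array. Leaving out 2 arrays together and fitting every probe set were added after the data were seen.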

Additional observations from a re-analysis of the deposited data

How the results depend on the processing

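All 13 member calls kept their direction in every alternative in which the gene was tested. Of these, 7 kept their side of the threshold in all those that leave in all 12 arrays or leave out 2 together. The 13 include the C4a/C4b calls between strains, which support nothing, and the 7 include the one in sham mice. The 7 also include C1qc between sham strains, which lost its call without any one of the sham arrays. The count of members called in C57BL/6, 0 in the report, was 1 at an adjusted p under 0.1, with values under 4 set to 4 or with the second brightest probe sets, 2 with the replicate block, where C5ar1 (adjusted p = 0.0339) and C4a/C4b (adjusted p = 0.0443) passed, and 0 to 1 leaving out single arrays. In Balb/c the count of 3 was 1 without a filter, with the filter at 7 or with the second brightest probe sets, and 1 to 3 leaving out single arrays. In the average the count of 4 was 2 with the filter at 7 or the second brightest probe sets, and 3 to 4 leaving out single arrays. Between strains the count of 3 was 1 with the filter at 7 in both treatments, and 1 with the 3' excess as a covariate in irradiated mice. The filter at 7 removes the dim members C5ar1 and C4a/C4b by construction. The second brightest probe sets of C5ar1 and Cfp failed the filter, so that setting left both members untested, and it read C3ar1 on another probe set. The cause of the remaining moves was not tested. Same-numbered irradiated and sham arrays correlated at -0.02 to 0.11 in C57BL/6 and 0.06 to 0.28 in Balb/c. Not all of these were above 0.1, so they were not counted as pairs. Whether such arrays share more than a number cannot be told from these values. Between irradiated arrays of the strains, where the numbers count as pairing, the block changed no call.

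Directions turned only in differences that were not called. With the 3' excess as a covariate C1qa was -0.0017 in C57BL/6, 0.026 in Balb/c and 0.012 in the average, C1qc was 0.056 in Balb/c and 0.051 in the average, and Itgb2 was 0.12 and 0.11. Without both arrays that stand apart C1qc was 0.0045 in Balb/c and 0.0075 in the average, Itgb2 was 0.020 and 0.082, and the strain difference of the Cfp effect was 0.13. With array weights the Cfp difference was 0.073 and Itgb2 was 0.014 in the average, and with centred arrays C1qa was -0.039 in C57BL/6. C1qb in Balb/c was -0.022 as the mean of its probe sets and -0.37 on the third probe set, which gave -0.14 in the average. For C3ar1 the second brightest probe set gave -0.36 for the strain difference of the effect, 0.22 between sham strains and -0.14 between irradiated strains, and between sham strains the third gave 0.12 and the mean of the probe sets 0.082. Leaving out single arrays, C1qa ranged over -0.027 to 0.028 and C1qb over -0.021 to 0.20 in C57BL/6, C1qc over -0.21 to 0.0045 and Itgb2 over -0.26 to 0.020 in Balb/c, and in the average C1qc over -0.081 to 0.028 and Itgb2 over -0.079 to 0.061. The Cfp strain difference of the effect ranged over -0.37 to 0.23, C3ar1 between sham strains over -0.18 to 0.018 and C1qa between irradiated strains over -0.076 to 0.13.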
